A study of Mus musculus with 12 samples.

Results

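Glucose enters the cells of the nervous system through facilitative transporters, and lactate is exchanged between cells through proton-coupled monocarboxylate transporters. The 10 genes described here cover that route: the glucose transporters Slc2a1 (GLUT1) and Slc2a3 (GLUT3), the lactate dehydrogenase subunits Ldha and Ldhb, the monocarboxylate transporters Slc16a1 (MCT1), Slc16a3 (MCT4) and Slc16a7 (MCT2), the transporter chaperone Bsg (basigin), and the pyruvate dehydrogenase kinases Pdk2 and Pdk4. They were chosen by name, out of 36121 genes in the expression table, and each of the 10 had 1 row. All 10 had a mean of at least 1 TPM (transcript abundance per length, scaled to the library) over the 12 mice and were tested, among 15259 genes that passed this filter.

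RNA of the whole spinal cord was sequenced from C57BL6 mice at 3 months of age, in 3 groups of 4 separate mice, each with 2 males and 2 females. Controls had the genotype Tardbp-fl/fl and no Cre. The cHet mice were Gfap-Cre; Tardbp-fl/+ and the cKO mice were Gfap-Cre; Tardbp-fl/fl. Tardbp encodes the RNA-binding protein TDP-43, and Gfap, the source of the Cre driver, is an intermediate filament gene of astrocytes. Each group carried at least 1 floxed allele. Cre was present in cHet and cKO and absent from control, so Cre and the loss of Tardbp cannot be told apart in a comparison with control. The labels do not name the Cre line, and a Gfap driver can also act in cells other than astrocytes. A cord contains neurons, oligodendrocytes, microglia and vessels besides astrocytes. In such bulk RNA, fewer cells of a type and less RNA per cell cannot be told apart.

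As background, GLUT1 is the transporter of the endothelium of the blood-brain barrier and of astrocytes, and GLUT3 is that of neurons. In the astrocyte-neuron lactate shuttle, astrocytes break glucose down to lactate, release it, and neurons take it up and oxidise it. MCT1 of oligodendrocytes has been assigned a like role in supplying axons. The LDHA subunit is associated with the making of lactate from pyruvate and LDHB with its use, while the pyruvate dehydrogenase kinases switch off the complex that sends pyruvate into the mitochondrial cycle.

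The promoters of 3 members are printed. They contrast the 2 lactate dehydrogenase genes, both called higher in cKO against control, with a transporter gene not called in any comparison. Each is the 250 bases before the most upstream start listed in RefSeq for GRCm38.p6, given 5′ to 3′ on the strand of the gene. None of the 3 windows overlaps an exon of the GENCODE annotation. The Ldha window lies inside the gene as GENCODE places it (46841475 to 46855627), downstream of its GENCODE start. Capitals mark ACGTG on either strand, a form of the core bound by hypoxia-inducible factors. The other form, GCGTG, was not marked or counted. CACGTG, the E-box palindrome that contains ACGTG, reads as a match on both strands and is counted as 1 stretch. They are Ldha at chr7:46845554-46845803 on the plus strand, Ldhb at chr6:142507958-142508207 on the minus strand and Slc16a1 at chr3:104638414-104638663 on the plus strand.
Ldha: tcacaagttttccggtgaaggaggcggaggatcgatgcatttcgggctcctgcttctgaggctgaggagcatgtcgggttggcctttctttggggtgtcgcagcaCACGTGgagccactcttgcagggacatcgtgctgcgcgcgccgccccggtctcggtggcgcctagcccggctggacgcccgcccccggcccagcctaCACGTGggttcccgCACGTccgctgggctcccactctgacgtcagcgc
Ldhb: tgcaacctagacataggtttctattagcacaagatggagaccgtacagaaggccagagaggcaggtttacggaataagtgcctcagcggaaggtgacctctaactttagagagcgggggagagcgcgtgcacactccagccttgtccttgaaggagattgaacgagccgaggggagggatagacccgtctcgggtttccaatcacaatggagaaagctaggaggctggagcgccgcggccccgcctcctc
Slc16a1: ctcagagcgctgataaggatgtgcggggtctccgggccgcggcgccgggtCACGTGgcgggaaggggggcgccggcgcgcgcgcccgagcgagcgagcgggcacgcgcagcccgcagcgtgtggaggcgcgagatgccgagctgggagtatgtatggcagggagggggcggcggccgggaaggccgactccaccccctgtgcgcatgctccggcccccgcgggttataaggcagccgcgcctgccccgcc
The Ldha window held 3 stretches, of which 2 were CACGTG. The Ldhb window held 0 and the Slc16a1 window 1, a CACGTG, while the unmarked GCGTG also occurs in both. Of the 7 members with an entry in the promoter table, 5 held ACGTG on either strand and 3 held CACGTG. Bsg, Slc2a3 and Slc16a7 had no entry. The members with ACGTG were Ldha, which was called in cKO against control, and Slc2a1, Slc16a1, Slc16a3 and Pdk2, which were not. Of all 32851 promoter windows of this length, 16.6% held ACGTG and 6.02% held CACGTG. A match describes letters in the window and not a bound site.

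In cKO cords, 3 of the 10 members rose against control: Ldha, Ldhb and Bsg. None fell, and 7 were not called. Across all genes tested 9.0% were called, 5.75% as higher and 3.25% as lower (limma, Benjamini-Hochberg adjusted p under 0.05). The median log2 change of the members was 0.14 and that of all genes 0.01. In cHet cords no member was called against control, as no gene was (0.0% of 15259). At an unadjusted p under 0.05 limma took 1 of the 10 members, Ldhb, and 1724 of all genes (11.3%) in that comparison. The authors' deposited likelihood ratio test also has 0 genes with a q under 0.05 there, and their Wald test has 28 (0.156%). Between cKO and cHet, which both carry Cre, Ldha and Ldhb were higher in cKO, where 5.01% of all genes were called, 2.41% as higher. The comparisons share groups, so they are not independent of each other.

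**Figure D1:**
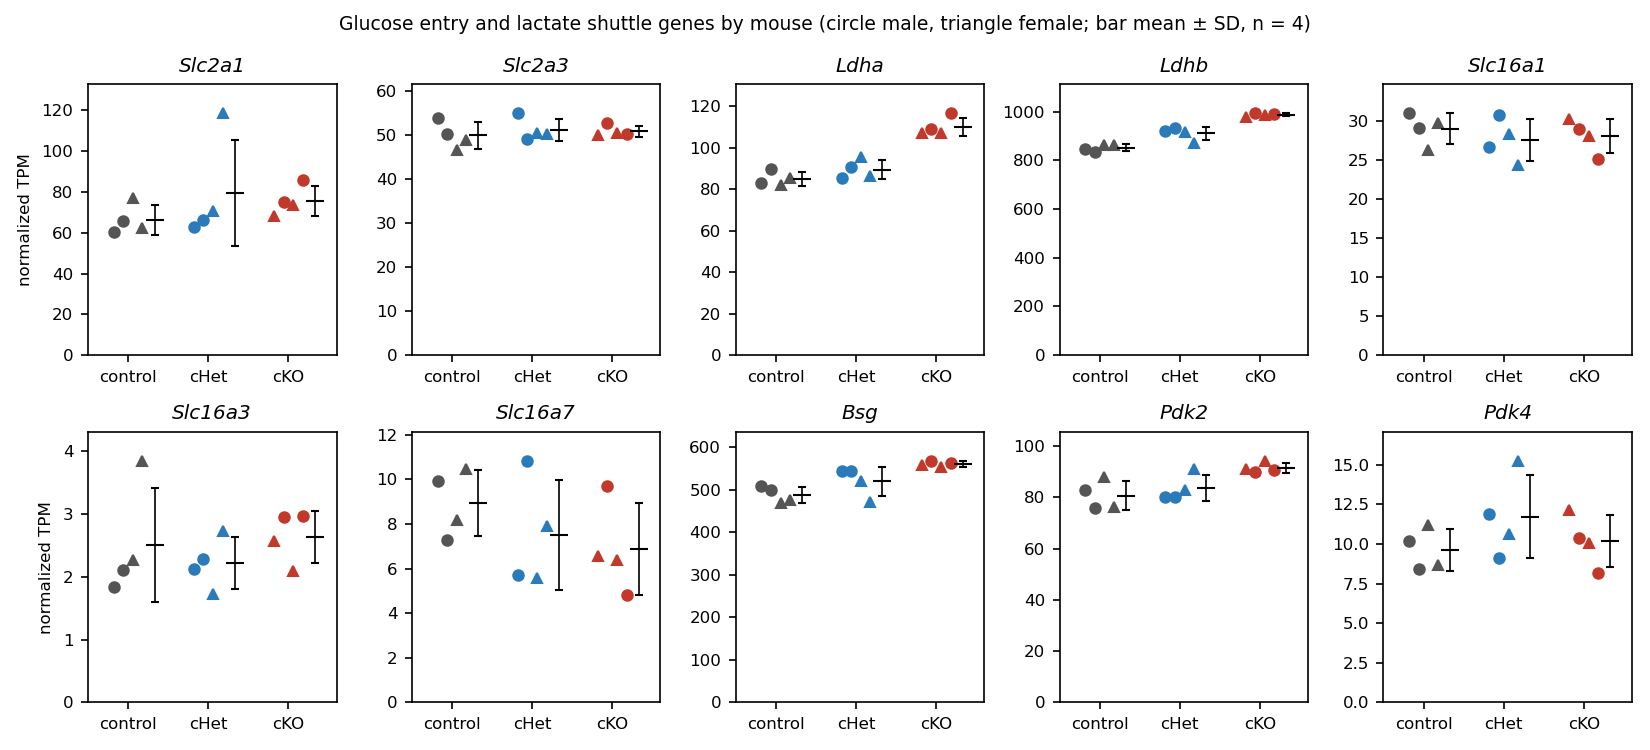
Normalized TPM (y axis, from 0) of each of the 10 genes in the 12 mice, by group (x axis), with circles for males, triangles for females and a bar for mean ± SD of 4 mice. All 4 cKO mice lie above all 4 controls for Ldha, Ldhb, Bsg and Pdk2, and cHet replicate 4 stands apart for Slc2a1 at 118 TPM.

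Tardbp held 166 to 181 TPM among controls, 158 to 178 among cHet mice and 140.5 to 151 among cKO mice, a log2 change of -0.20 in cKO against control (limma adjusted p = 0.0113). The libraries held 15188 to 15384 genes at 1 TPM or more and no 2 were identical. One mouse, cHet replicate 4, stood apart, with 19 genes above 1.5 times every other library, and values of Slc2a1, Bsg, Pdk2 and Pdk4 are also given without it. Their values summed to 954895 to 978621 in control, 983452 to 1023990 in cHet and 1017860 to 1048380 in cKO, so the deposited scale differs between groups. The mitochondrially encoded share lay at 16.04% to 18.3% among controls, 16.4% to 18.4% among cHet mice and 19.0% to 20.4% among cKO mice. Over all genes 878 were called higher and 496 lower in cKO against control. This split was 734 and 545 after median-of-ratios rescaling, 467 and 813 with equal totals without mitochondrially encoded genes, and 352 and 1666 with equal totals of all genes.

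Among the members, control cords held most Ldhb, followed by Bsg, Ldha, Pdk2, Slc2a1, Slc2a3, Slc16a1, Pdk4, Slc16a7 and Slc16a3, by mean TPM, a per-length level that can be compared between genes. Ldhb exceeded Bsg 1.75-fold and Bsg exceeded Ldha 5.73-fold. The control mice of Ldha and Pdk2 overlapped in level, as did those of Pdk2 and Slc2a1 and those of Pdk4 and Slc16a7. The order of these pairs held in 9, 11 and 10 of the 12 mice, and the order of every other neighbouring pair in 12 of 12.

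Ldhb encodes the heart-type subunit of lactate dehydrogenase (chromosome 6, 142490249 to 142507957, minus strand, GRCm38). The 4 control mice had 845, 833, 863 and 864 TPM. The 4 cHet mice had 922, 933, 916 and 871 TPM. The 4 cKO mice had 978, 992, 988 and 989 TPM. Every cHet mouse lay above every control and every cKO mouse above every cHet mouse. Of all genes tested, 58 (0.38%) had the 3 groups in this order with no overlap between any 2. Taken in turn, 4.12% of all genes had cHet entirely above control and 6.14% had cKO entirely above cHet. Group means were 851 ± 14.8, 910.5 ± 27.1 and 987 ± 6.38 TPM for control, cHet and cKO (SD, n = 4). Against control Ldhb rose in cKO by a log2 change of 0.21 ± 0.03 (SE), a 1.16-fold difference of means (limma adjusted p = 0.000371, 95% interval 0.16 to 0.27). In cHet the change was 0.10 ± 0.03 and was not called (limma adjusted p = 0.216). Between cKO and cHet it was 0.12 ± 0.03 (limma adjusted p = 0.0209). That call was lost without cKO replicate 2 (limma adjusted p = 0.0648), replicate 3 (0.0543) or replicate 4 (0.0583), and with equal totals of all genes (0.0867). With equal library totals, with or without mitochondrially encoded genes, the cHet mice overlapped control, and cKO lay above both.

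Summed TPM of 10 astrocyte markers stood at 3031 to 3133 in control, 3142 to 3358 in cHet and 3417 to 3620 in cKO, the same order of groups as Ldhb. The largest parts of the sum were Aldoc, with means of 1229, 1248 and 1560 TPM in control, cHet and cKO, and S100b, with 872, 954 and 919. The sum is thus not a level shared by all 10 markers. Of these markers 2 rose (Slc1a2 and Aldoc) and 2 fell (Slc1a3 and Gja1) in cKO against control, and none was at 0 in all mice. Their part in the Ldhb result was not tested, nor was that of the library totals, which followed the same order.

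Ldha encodes the muscle-type subunit (chromosome 7, 46841475 to 46855627, plus strand). Control mice had 82.8, 89.6, 82.0 and 85.7 TPM. The cHet mice had 85.4, 90.5, 95.5 and 86.6 TPM. The cKO mice had 107, 109, 107 and 117 TPM, all above every other mouse, while cHet overlapped control. Ldha rose in cKO from 85.0 ± 3.41 to 110.0 ± 4.46 TPM (SD, n = 4), or 1.29-fold, a log2 change of 0.37 ± 0.04 (SE; limma adjusted p = 0.000362, 95% interval 0.27 to 0.47). It was the largest change among the called members. Against cHet, at 89.5 ± 4.58 TPM, the log2 change was 0.30 ± 0.04 (limma adjusted p = 0.00193). In cHet against control it was 0.07 (limma adjusted p = 0.570). The authors' deposited table for cKO against control gives a likelihood ratio q of 0.000424 for Ldha and 0.000462 for Ldhb, where 9.42% of its genes have a q under 0.05. For their comparison of cKO with cHet the authors' deposited table gives 0.00617 for Ldha and 0.0323 for Ldhb, beside 3.78% of its genes. The 2 pseudogenes named after Ldha in the annotation reached a mean of at most 0.608 TPM.

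Active lactate dehydrogenase is a tetramer of these subunits, so their transcripts were also added. Ldha and Ldhb together made 923 to 949 TPM in control, 958 to 1023 in cHet and 1085 to 1106 in cKO, with no overlap between groups. Ldhb made most of this sum, so its order of groups restates that of Ldhb, found in 0.38% of all genes tested. With equal library totals the cHet mice overlapped control for Ldha and for Ldhb. The Ldha share of that sum was 9.08% ± 0.437 in control mice, 8.95% ± 0.401 in cHet mice and 10.03% ± 0.344 in cKO mice (SD, n = 4). All 4 cKO mice, at 9.80% to 10.5%, lay above all 4 controls, at 8.68% to 9.70%. The difference of 0.943 percentage points had an exact two-sided permutation p = 0.0286, the smallest that 4 against 4 allows, and 0.171 after adjustment over 12 share tests. Against cHet the difference was 1.08 points with the same exact p of 0.0286 and the same adjusted p of 0.171. With 12 such tests of 4 against 4 mice, the adjustment leaves little room for any share to pass, so these adjusted values say nothing on whether the shares differ.

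**Figure D2:**
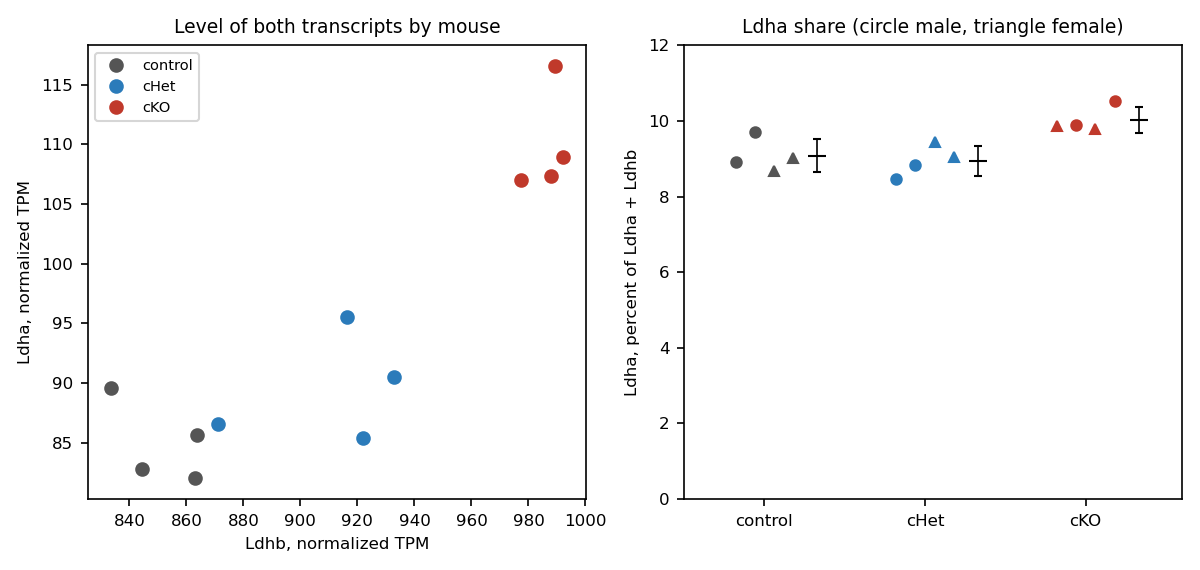
Left, Ldha against Ldhb in normalized TPM for each of the 12 mice (axes do not start at 0). Right, the Ldha percent of the Ldha and Ldhb sum by group (y axis from 0; circles males, triangles females, bar mean ± SD of 4 mice), where the cKO mice lie at 9.80% to 10.5% and controls at 8.68% to 9.70%.

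Bsg encodes basigin, the membrane glycoprotein that carries MCT1 and MCT4 to the cell surface (chromosome 10, 79704491 to 79711969, plus strand). Control mice had 508, 499, 468 and 475 TPM. The cHet mice had 544, 543, 519 and 472 TPM. The cKO mice had 557, 568, 553 and 563 TPM, above all controls and all cHet mice. Bsg rose in cKO from 487 ± 19.1 to 560.0 ± 6.69 TPM (SD, n = 4), or 1.15-fold, a log2 change of 0.20 ± 0.04 (SE; limma adjusted p = 0.0147, 95% interval 0.11 to 0.30). The call depended on the scale between libraries. With equal totals without mitochondrially encoded genes the log2 change was 0.15 (limma adjusted p = 0.0511), and with equal totals of all genes 0.11 (0.112). Under both the 4 cKO mice still lay above the 4 controls. In cHet, at 519 ± 33.7 TPM, the log2 change was 0.09 against control (limma adjusted p = 0.472) and cKO was higher than cHet by 0.11 (0.200), neither called. These values moved with cHet replicate 4, the lowest cHet mouse. Without it the log2 change was 0.14 in cHet against control and 0.06 in cKO against cHet, again not called. The other 3 cHet mice lay above all 4 controls, but with replicate 4 included cHet overlapped control. The Bsg value of replicate 4 was not flagged as far from the rest of its group. How often other genes separate 3 against 4 mice in this way was not computed. This separation is therefore no evidence of a Bsg rise in cHet. The authors' deposited tables give a likelihood ratio q of 0.000638 for cKO against control and 0.102 for cKO against cHet.

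None of the 3 monocarboxylate transporters was called in any comparison. Slc16a1, the transporter MCT1 (chromosome 3, 104638668 to 104658462, plus strand), was at 31.0, 29.1, 26.3 and 29.8 TPM in control. It was at 26.7, 30.8, 28.3 and 24.4 TPM in cHet and 30.3, 29.0, 28.1 and 25.1 TPM in cKO. The 3 groups overlapped. Its log2 change in cKO against control was -0.05 ± 0.08 (SE; limma adjusted p = 0.791), with a 95% interval of -0.22 to 0.12. Summed TPM of 9 mature oligodendrocyte markers was 20677 to 21623 in control and 17195 to 19586 in cKO, and 7 of the 9 fell. Whether a change of oligodendrocyte RNA bears on the Slc16a1 value was not tested.

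Slc16a7 encodes MCT2, the high-affinity transporter of neurons (chromosome 10, 125219270 to 125389465, minus strand). It was at 9.91, 7.28, 8.17 and 10.4 TPM in control, 5.73, 10.8, 5.57 and 7.91 in cHet, and 6.56, 9.71, 6.38 and 4.81 in cKO. Group means were 8.95 ± 1.48, 7.51 ± 2.46 and 6.87 ± 2.06 TPM (SD, n = 4) and the groups overlapped. The log2 change of -0.39 ± 0.22 (SE) in cKO against control was as large in size as that of Ldha, with a spread that left it uncalled (limma adjusted p = 0.345, 95% interval -0.87 to 0.10). A ratio was taken of the variances in the authors' deposited table for cKO against control. By it, the estimation of abundance made 70.9% of the variance of Slc16a7, 47.9% of that of Ldha and 21.7% of that of Ldhb. The ratio was 97.2% for Slc2a3, which was not called, and 71.1% for Tardbp, which was called. Whether it bears on the Slc16a7 call was not tested. Slc16a3, the low-affinity transporter MCT4 of astrocytes (chromosome 11, 120948480 to 120960868, plus strand), was the lowest of the members. Control mice had 1.83, 2.10, 2.26 and 3.84 TPM, cHet mice 2.13, 2.28, 1.72 and 2.72, and cKO mice 2.56, 2.94, 2.08 and 2.96. Its log2 change in cKO against control was 0.09 ± 0.19 (SE; limma adjusted p = 0.830), with a 95% interval of -0.32 to 0.51.

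Slc16a1 made 71.8% ± 3.32 of the sum of the 3 transporter transcripts in control mice, 74.1% ± 5.02 in cHet mice and 74.9% ± 3.53 in cKO mice (SD, n = 4). Each pair of groups overlapped, and the exact two-sided permutation p was 0.286 for cKO against control (adjusted 0.571). The sum itself was 36.7 to 44.1 TPM in control and 32.9 to 41.7 TPM in cKO.

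Among the glucose transporters no member was called in any comparison. Slc2a1 (chromosome 4, 119108711 to 119137983, plus strand) was at 60.1, 65.7, 76.8 and 62.3 TPM in control. The cKO mice had 68.4, 74.9, 73.6 and 85.9 TPM and the cHet mice 62.9, 66.0, 70.7 and 118 TPM. The last of these, cHet replicate 4, exceeded every other mouse, and the 3 groups overlapped. The log2 change in cKO against control was 0.19 ± 0.17 (SE; limma adjusted p = 0.554, 95% interval -0.17 to 0.56). In cHet it was 0.22 (limma adjusted p = 0.673) and without replicate 4 it was 0.01. Without that mouse cKO against cHet changed from -0.03 to 0.18 (limma adjusted p = 0.338). Summed TPM of 9 endothelial markers lay at 231 to 242 among controls, 240.0 to 275 among cHet mice and 246 to 278 among cKO mice, and none of the 9 was called against control. Their part in the Slc2a1 values was not tested.

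Slc2a3 (chromosome 6, 122727809 to 122801640, minus strand) had nearly equal means in the 3 groups. Control mice had 54.0, 50.4, 46.6 and 49.0 TPM, cHet mice 55.0, 49.2, 50.6 and 50.4, and cKO mice 50.1, 52.8, 50.5 and 50.3. Group means were 50.01 ± 3.07, 51.3 ± 2.52 and 50.9 ± 1.26 TPM (SD, n = 4). The log2 change in cKO against control was 0.03 ± 0.05 (SE; limma adjusted p = 0.798), and its 95% interval of -0.08 to 0.13 does not reach the change of Ldha or Ldhb. Its sign was negative with equal library totals. Slc2a1 made 56.9% ± 3.96 of the sum of both transporters in control mice, 59.8% ± 7.24 in cHet mice and 59.7% ± 2.35 in cKO mice (SD, n = 4), and the groups overlapped.

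Pdk2 encodes a broadly expressed pyruvate dehydrogenase kinase (chromosome 11, 95026258 to 95041354, minus strand). Control mice had 83.0, 75.9, 87.9 and 76.1 TPM, cHet mice 80.2, 80.3, 82.7 and 91.2, and cKO mice 90.9, 89.8, 94.3 and 90.6. All 4 cKO mice lay above all 4 controls, while 1 cHet mouse lay within the cKO range. Of all genes tested, 10.5% had cKO entirely above control, and 4 of the 10 members did: Ldha, Ldhb, Bsg and Pdk2. Means of Pdk2 were 80.7 ± 5.81, 83.6 ± 5.17 and 91.4 ± 1.99 TPM (SD, n = 4). The log2 change of 0.18 ± 0.05 (SE) in cKO against control was just outside the threshold (limma adjusted p = 0.0561, 95% interval 0.06 to 0.30). It was inside it without control replicate 3 (0.0248), without cHet replicate 4 (0.0309), with sex as a covariate (0.0475) and among genes of at least 5 TPM (0.0456). With equal totals, with or without mitochondrially encoded genes, the cKO mice overlapped control. The authors' deposited table gives a likelihood ratio q of 0.0589 and a Wald q of 0.0376, a rule that takes 10.2% of its genes.

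Pdk4, the kinase induced by fasting (chromosome 6, 5483351 to 5496309, minus strand), was at 10.2, 8.41, 11.2 and 8.67 TPM in control. It was at 11.9, 9.12, 10.7 and 15.3 TPM in cHet and 12.2, 10.4, 10.1 and 8.18 TPM in cKO, with the highest value again in cHet replicate 4. The groups overlapped, and the log2 change was 0.08 ± 0.15 (SE) in cKO against control (limma adjusted p = 0.832, 95% interval -0.26 to 0.41) and 0.26 in cHet (0.568). Without cHet replicate 4 the cHet value was 0.13. Pdk4 made 7.25% ± 0.604 of the TPM of the 4 kinase genes in control mice, 8.38% ± 1.34 in cHet mice and 7.04% ± 1.04 in cKO mice (SD, n = 4). The groups overlapped, and the smallest exact two-sided permutation p was 0.171, for cKO against cHet (adjusted 0.571). The other 2 kinases were at similar means in the 3 groups, Pdk1 at 14.1, 14.2 and 14.4 TPM and Pdk3 at 28.0, 29.5 and 28.6 TPM for control, cHet and cKO.

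**Figure D3:**
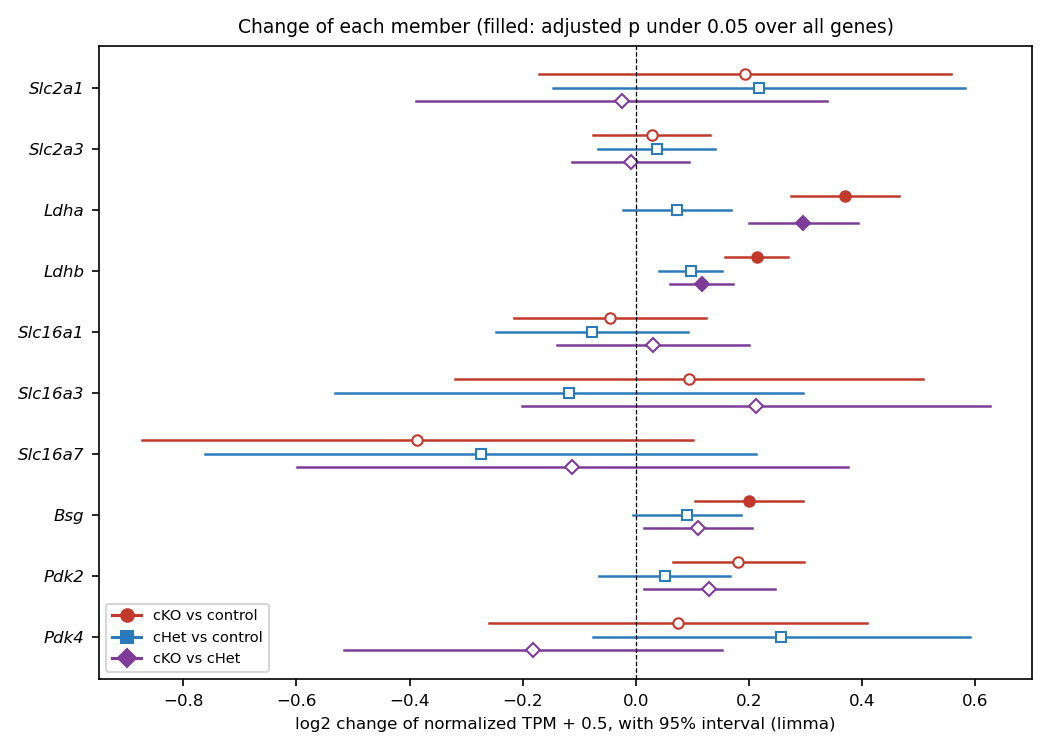
Log2 change of each member (x axis, on log2 of TPM + 0.5) with its 95% interval from limma, for cKO against control, cHet against control and cKO against cHet; filled symbols have an adjusted p under 0.05 over all genes. Ldha, Ldhb and Bsg are filled for cKO against control, and the widest intervals are those of Slc16a7 and Slc16a3.

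**Figure D4:**
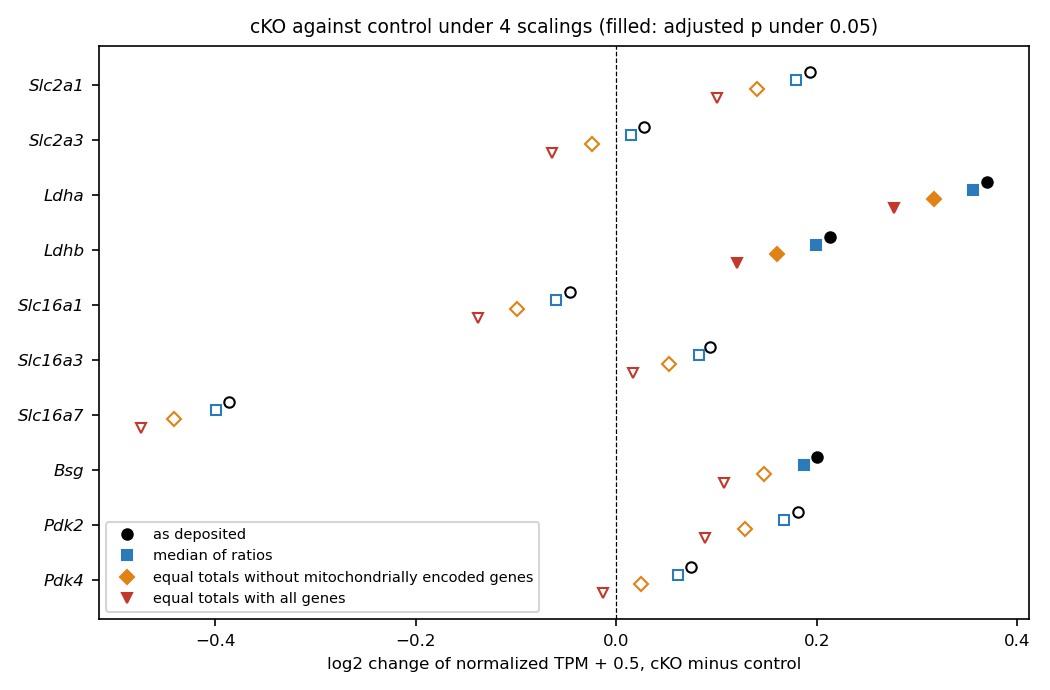
Log2 change of each member in cKO against control (x axis) with the values as deposited and after 3 rescalings; filled symbols have an adjusted p under 0.05. Ldha and Ldhb are filled under all 4, Bsg is not with equal totals, and each rescaling moves all members to the left.

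The plot of rescaled changes shows that every member moved down by a like amount when libraries were brought to equal totals, since the cKO libraries had the highest sums. Ldha then had a log2 change of 0.28 and Ldhb of 0.12 in cKO against control, both called. No effect of sex on these comparisons was called for any member (limma interaction of sex and genotype, adjusted p of at least 0.920 for all 10).

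The next steps of the pathway were described from lists chosen by name. Across all genes tested 9.0% were called in cKO against control, 5.75% as higher and 3.25% as lower. Each count below stands beside that share, and no list was tested as a set. Pyruvate enters mitochondria through a carrier made of Mpc1 and Mpc2 and is used by the pyruvate dehydrogenase complex or by pyruvate carboxylase. Of 9 such genes, 2 rose and 1 fell in cKO against control. The carrier subunit Mpc2 rose from 170.3 ± 7.61 to 196 ± 9.29 TPM (SD, n = 4), a log2 change of 0.20 (limma adjusted p = 0.00896). With equal totals of all genes its log2 change was 0.11 and was not called (0.0661). The dehydrogenase subunit Pdhb rose by 0.11 (0.0390), a call lost in 13 of 24 alternative settings, with equal totals of all genes at a log2 change of 0.02 (0.653). Pcx, the carboxylase of astrocytes, fell by 0.15 on the log2 scale (0.0449), a call lost in 11 of 24 (adjusted p of at most 0.117). Among 5 other pyruvate dehydrogenase kinases and phosphatases none was called, and Pdp1, with the smallest p, had a mean of 28.8 TPM in controls, and 31.4 in cKO mice (limma adjusted p = 0.166).

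Of 9 hexokinases and enzymes that set fructose 2,6-bisphosphate, 1 rose in cKO. It was Pfkfb3, whose product drives glycolysis, at 44.3 ± 1.75 TPM in controls, while cKO mice had 52.2 ± 2.20 (SD, n = 4), a log2 change of 0.23 (limma adjusted p = 0.00309). Of 9 other hexose transporters tested none was called against control, and Slc2a12 had 1.26 TPM in controls, and 0.871 in cKO mice (limma adjusted p = 0.0834). A list of other monocarboxylate transporters, a chaperone and the lactate receptor held 15 genes. Of these, 11 passed the filter and none was called in cKO against control. The lactate receptor gene, Hcar1, did not pass the filter and was not tested. Slc16a5 had the smallest p there, with 1.46 TPM in control and 2.24 in cKO (limma adjusted p = 0.0540).

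Of 17 genes of the hypoxia factor pathway 1 rose and 1 fell in cKO against control, where 9.0% of all genes were called. Epas1, the factor HIF-2 alpha of endothelium and astrocytes, rose from 38.5 ± 0.530 to 46.7 ± 1.40 TPM (SD, n = 4; log2 change 0.28, limma adjusted p = 0.00288). Ndrg1, a hypoxia target also abundant in oligodendrocytes, fell from 191 ± 4.32 to 163 ± 7.11 TPM (log2 change -0.23, limma adjusted p = 0.00171). Of 16 genes tested of the fasting response and its PPAR and FOXO factors, 4 rose and none fell, with a median log2 change of 0.17. Ucp3, a mitochondrial carrier, rose from 6.03 ± 0.474 to 10.2 ± 0.235 TPM (SD, n = 4; limma adjusted p = 0.000652). Cpt1a, which admits fatty acids to mitochondria, rose by a log2 change of 0.29 (limma adjusted p = 0.000859). Angptl4 had 0.823 TPM in control and 1.65 in cKO (limma adjusted p = 0.0330), and under 8 of 23 alternatives it was no longer called (adjusted p of at most 0.0907), and the fourth gene called was Esrra. Of 11 genes of insulin and energy sensing 1 rose, the kinase Akt2, by a log2 change of 0.17 (limma adjusted p = 0.0175). Akt2 was not called under 4 of 24 alternatives. They were equal totals of all genes (log2 change 0.08, adjusted p = 0.278) or without mitochondrially encoded genes (0.12, 0.0945), and leaving out control replicate 2 (adjusted p = 0.0534) or cKO replicate 2 (0.0550). In cHet against control 0 genes were called in each of these 8 lists. As 0 of all 15259 genes tested were called there, these counts say nothing particular about the lists. Between cKO and cHet the called genes included Slc2a12, Pcx and Ndrg1 as lower and Pfkfb3, Epas1, Cpt1a and Ucp3 as higher in cKO.

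Marker lists give the cell types beside these values, and their counts stand beside the 9.0% of all genes called in cKO against control. In cKO against control 3 of 8 neuron markers and 4 of 6 microglia markers rose, with summed TPM of 3354 to 3548 and 178 to 187 in control and 3571 to 3789 and 216 to 231 in cKO. One of 6 meningeal markers rose, and of 3 Schwann cell markers tested 1 rose and 1 fell. No pericyte, ependymal, red blood cell or skeletal muscle marker was called, and the 6 adipocyte markers, whose sum was at most 3.26 TPM in a mouse, were below the filter. Red blood cell markers summed to 1094 to 2726 TPM in control and 1070 to 5123 in cKO. The part of these cell types in the changes of Ldha, Ldhb and Bsg was not tested.

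For each called member the 3 genes with the most similar pattern over the 12 mice were taken, by the root mean square difference of centred log2 values among 11299 genes. For Ldha they were Acsbg1 (0.0470), Ctsd (0.0522) and Clu (0.0524), where the median gene differed by 0.191. For Ldhb they were Iscu (0.0303), the glycolytic gene Tpi1 (0.0306) and Plekhb2 (0.0320), with a median of 0.129. For Bsg they were Ppp1r11 (0.0407), Atp5o (0.0433) and Plcb1 (0.0449), with a median of 0.135. These values are descriptions of 12 mice that share their groups, and no test was made.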

How the data were processed

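Expression was measured in 12 spinal cord libraries. Kallisto 0.44.0, sleuth 0.30.0 and GRCm38 are named in the submitters' processing notes, with no further steps. The authors deposited normalized TPM per gene, a signal that is never negative and that keeps no read depth, so depth is unknown and no counting interval is given. The authors also deposited comparison tables with q-values and p-values from likelihood ratio and Wald tests, and with a score for effect and variance whose log base is not stated; of the scores only the ratio of variances is used.

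Genes averaging 1 TPM or more were compared on log2(TPM + 0.5), so that fold changes of low genes are understated, with limma 3.58.1 in R 4.3.3 (trended eBayes, two-sided, all 12 mice, Benjamini-Hochberg over all genes tested; called under 0.05). The step was tested on simulated data. Shares were compared with exact permutation tests over 70 assignments. The replicate numbers follow deposit order. Text names all 10 members, up to 3 called genes per list or the 1 with the smallest p, and 3 genes of like pattern per called member (mean of at least 5 TPM). Esrra, Pdk1, Pdk3 and the genes of cHet replicate 4 fall outside that rule and were chosen after their values were seen. The result of 1 list gene is not reported here. Alternatives were other pseudocounts, filters, scalings, variance models, sex as a covariate, and each mouse left out. Equal totals with all genes was added after seeing the data. The members and lists were chosen with earlier results of these data known. Coordinates are from GENCODE M21. Antisense genes are annotated over Slc2a1, Slc16a7 and Pdk2, and no source used here says whether libraries marked strand.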

Additional observations from a re-analysis of the deposited data

Results flagged for a closer look

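In 42 groups of 4 values examined, 4 held a mouse far from the other 3, judged by its gap to the nearest mouse relative to the range of the group and Dixon's 95% critical value for 4. Chance flags about 1 in 20 groups. Slc2a1 in cHet reached 118 TPM in replicate 4, where the next cHet mouse had 70.7 (ratio 0.860). Slc2a3 in cKO reached 52.8 TPM in replicate 2, where the other 3 were at 50.1 to 50.5 (ratio 0.875). The Ldha share of lactate dehydrogenase transcripts reached 10.5% in cKO replicate 4 (ratio 0.875). The Slc16a1 share of monocarboxylate transporter transcripts was lowest, at 69.6%, in cKO replicate 2 (ratio 0.936), the cKO mouse with the highest Slc16a7 level, 9.71 TPM.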

How the results depend on the processing

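Each value was recomputed under up to 24 alternatives. Ldha and Ldhb were called in cKO against control in all 24, with log2 changes of 0.28 to 0.39 and 0.12 to 0.22, and Ldha also in all 24 against cHet. With equal totals (without mitochondrially encoded genes, then with all genes) Slc2a3 had a log2 change of -0.025 and -0.064 in cKO and -0.016 and -0.014 in cHet against control, and Pdk2 -0.00261 and -0.000483 in cHet. With all genes Pdk4 had -0.013 in cKO against control and Slc16a1 -0.00998 in cKO against cHet. No filter gave 2 genes called in cHet against control. One member, Ldha, remained called in cKO against cHet with equal totals of all genes, with 2 groups in the fit (Ldhb adjusted p = 0.0669) and without trend (0.0741). In males and females, values with no test, the difference in percentage points was -0.654 and 0.389 for the Ldha share in cHet against control and 1.55 and 0.597 against cHet in cKO. The Slc2a1 share differed by 6.21 and -0.571 in cKO against control and by 5.53 and -5.70 against cHet, and the Slc16a1 share by -1.07 and 7.26 in cKO against control.

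Leaving out each mouse gave 815 to 1513 genes called in cKO against control (815, 891 and 907 when cKO replicate 2, cKO replicate 4 or control replicate 2 was left out), 0 to 1 in cHet against control, and 1 to 2 members in cKO against cHet. For cKO against control log2 changes ranged from -0.010 to 0.17 for Pdk4, -0.093 to 0.0057 for Slc16a1, -0.014 to 0.28 for Slc16a3 and -0.00496 to 0.065 for Slc2a3. For cHet against control they ranged from -0.23 to 0.073 for Slc16a3 and -0.025 to 0.033 for Tardbp. For cKO against cHet they ranged from -0.026 to 0.085 for Slc16a1, -0.28 to 0.071 for Slc16a7, -0.12 to 0.18 for Slc2a1 and -0.028 to 0.024 for Slc2a3. Shares ranged, in points, from -0.296 to 0.0737 for Ldha and -0.555 to 5.04 for Slc2a1 in cHet against control, and from -0.630 to 0.209 for Pdk4 in cKO against control. Against cHet in cKO they ranged from -0.728 to 2.58 for Slc16a1 and -2.22 to 3.37 for Slc2a1. A share test of 3 against 4 cannot go below 0.0571. Slc16a3 has no value with a mean of at least 5 TPM, being below that filter. Where alternatives changed a value beyond fewer mice or another total, the cause was not tested. No paired analysis was possible because the labels give no replicate numbers.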

Other observations

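The cHet mouse with the high Slc2a1 level, replicate 4, differed from the other 11 in further genes. Of 11845 genes averaging 5 TPM or more, 19 exceeded 1.5 times every other library there, where the other 11 libraries had 0 to 5 such genes. The highest ratio was that of Zbtb16, a zinc finger factor, at 30.1 TPM where the next mouse had 8.67. The next by rank were the kinase gene Sgk3, at 26.5 TPM against 11.7, Agtrap, at 26.1 against 13.2, and Arid5b, at 22.6 against 11.7. Slc2a1 exceeded the next mouse 1.38-fold and stood at rank 35. Among the other members this mouse had the highest Pdk4 of all 12, the highest Pdk2 of the cHet group, and the lowest Ldhb, Bsg and Slc16a1 of that group. Its oligodendrocyte markers summed to 24461 TPM, its endothelial markers to 275 TPM and its meningeal markers to 37.7 TPM, the highest of the cHet group. Its astrocyte (3142 TPM), neuron (3466), microglia (179) and red blood cell (816) markers had the lowest sums of that group. The part of these cell types in its member values was not tested. These genes were chosen after their values were seen, and no comparison of groups rests on them.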
